A study of Mus musculus with 5 samples.

Results

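Oxidative phosphorylation is encoded by 2 genomes, and the mRNAs of both were compared here in the small intestine of mice with and without an inducible Cre directed against Chrm4, a muscarinic acetylcholine receptor gene. The set was chosen by gene symbol: all names starting with mt-, and the names of nuclear genes for subunits and assembly factors of the respiratory chain complexes and of ATP synthase (Ndufa, Ndufb, Ndufc, Ndufs, Ndufv, Sdh, Uqcr, Cox4i, Cox5, Cox6, Cox7, Cox8 and Atp5). It held 108 of the 19198 genes in the count table, and a further 4 names ending in -ps, which mark pseudogenes, were left out. Of the 108 genes, 15 lie in mitochondrial DNA (13 mRNAs and 2 ribosomal RNAs) and 93 in the nucleus. The nuclear genes comprised 75 subunits, 12 assembly factors, 3 gene copies, 2 isoforms known from other tissues (Cox6b2 and Cox7a1) and Cox7a2l, a factor of respiratory supercomplexes. No row for a mitochondrial tRNA was among them.

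The Cre-negative group held 3 mice with the genotype mAChR4 fl/fl, and the Cre-positive group held 2 littermates that carried Math1Cre*PR in addition. Math1 drives this Cre in the secretory lineage of the intestinal epithelium, and the progesterone receptor domain makes it depend on RU486, a receptor ligand. All 5 mice had floxed alleles and were gavaged with RU486 at 10 mg/kg daily for 4 days, so neither differed between the groups. No Cre-positive mouse without floxed alleles was included, and effects of the active Cre and of losing the receptor cannot be told apart. The tissue is given as whole small intestine, without saying whether this means its full length or the full wall of a piece. The labels give each mouse its own number but not age or sex, and the replicate numbers used here follow the order of the records.

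The respiratory chain passes electrons from NADH (complex I) or succinate (complex II) through ubiquinone, complex III and cytochrome c to oxygen at complex IV, and ATP synthase (complex V) uses the resulting proton gradient to make ATP. Mitochondrial DNA encodes the hydrophobic cores of complexes I, III, IV and V, while complex II and all remaining subunits are nuclear. Mitochondrial mRNAs are cut from long transcripts of either strand, and their levels after cutting depend on the stability of each mRNA. In the small intestine, absorptive enterocytes are rich in mitochondria.

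Libraries held 4681119 to 6618204 estimated counts. CPM below are counts scaled to library size after adjustment by trimmed mean (TMM) factors, and log2 fold changes set Cre-positive over Cre-negative mice in edgeR's quasi-likelihood fit and carry standard errors. Of marker genes, 10 of 10 epithelial and 12 of 12 enterocyte genes were in the table, as were 10 of 10 smooth muscle and 12 of 12 leukocyte genes. Absent from it were 7 of 10 striated muscle genes, among them Myh7, Myl2 and Actc1. Presence in the table takes a total of only 10 counts, so it does not identify the tissue. Enterocyte markers summed to 25834, 16672 and 32291 CPM in Cre-negative 1, 2 and 3, compared with 13520 and 35556 CPM in Cre-positive 1 and 2. Of these 12 genes, 11 had negative log2 fold changes, with a median of -0.28, and the groups overlapped for all 12. Apob, the only positive one, held much of each sum, at 13923, 9314 and 14847 CPM against 8822 and 19849 CPM. Fabp1 had 60, 37 and 628 counts against 0 and 196 counts, so none in Cre-positive 1. Leukocyte markers stood apart in Cre-positive 1, at 558 CPM against 56.6 to 91.8 CPM in the other libraries. Values without that library are therefore given for many of the results below, though not for all. A result given without such a value may also rest on it. In these bulk libraries, fewer cells of a type and less RNA per cell cannot be told apart.

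No gene of the set passed the threshold when tested with all genes (adjusted p below 0.05 in edgeR), and the same held for the table as a whole. Of 14352 genes tested, 0 were called (0%), with a lowest adjusted p of 0.977, and 485 had an unadjusted p below 0.05. Of the 108 members, 97 passed the filter on low counts and 0 were called. Unadjusted p was below 0.05 for 2 of them, Ndufa1 and Ndufb11, in edgeR, for 3 in DESeq2 and for 4 in limma-voom, and 0 members were called by any of these. The 11 members that did not pass the filter were Ndufa5, Ndufs5, Ndufs6b, Cox6c2, Ndufaf2, Ndufaf3, Ndufaf5, Ndufaf6, Ndufaf8, Sdhaf1 and Sdhaf4, all at a mean of 1.65 CPM or less. The log2 fold changes below are therefore sizes with their errors and not called changes. Of the 45 that are given, 37 moved by over 1.5 times when 1 mouse was left out, so most of them depend on single mice.

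The mitochondrial mRNAs were lower in Cre-positive than in Cre-negative mice on average, by a small amount relative to the spread between mice. The log2 fold change was negative for 13 of 13, with a median of -0.31, beside a median of -0.04 over all 14352 genes, of which 54.5% were negative. The 13 mRNAs are cut from shared transcripts and counted in the same libraries, so they are not independent of each other. The groups did not overlap, with Cre-positive mice lower, for 3 of the 13 (mt-Nd4l, mt-Co2 and mt-Atp8) and overlapped for the other 10, beside 10.2% of all genes tested that were lower without overlap and 7.89% that were higher. Cre-negative 1 had the highest CPM of the 5 libraries for each of the 13 mRNAs. CPM divide by the TMM factor, which was lowest in that library, at 0.895. Before this factor, mt-Nd1 had the larger share in Cre-negative 2, with 129096 of 5311647 counts against 105149 of 4681113 in Cre-negative 1. Without Cre-negative 1 the median log2 fold change was -0.14, and without Cre-positive 1 it was -0.22.

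**Figure D1:**
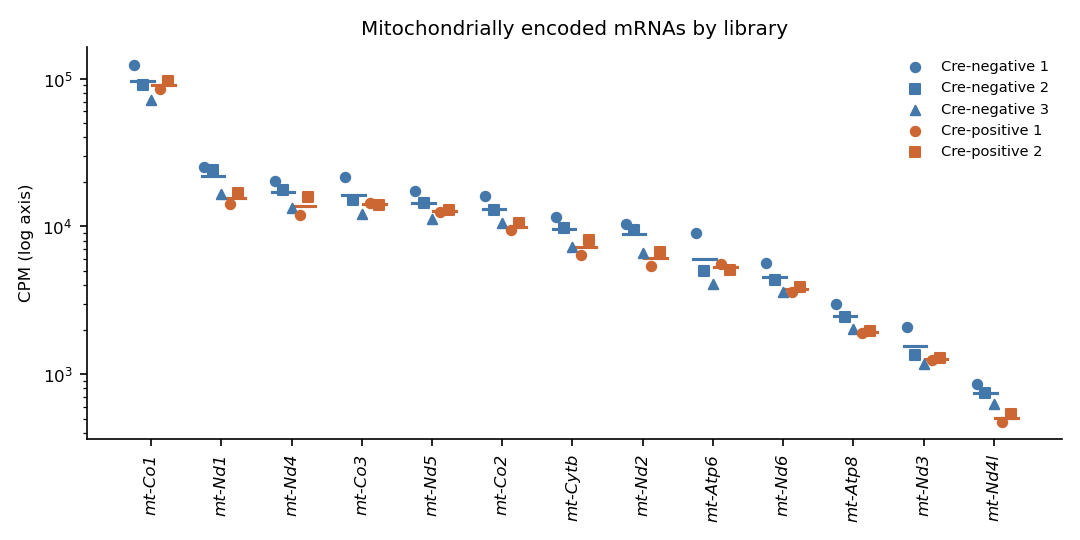
CPM (log axis) of the 13 mitochondrially encoded mRNAs in each library, ordered by mean. Points are single mice (blue Cre-negative, orange Cre-positive) and lines are group means; Cre-negative 1 is the highest point for every gene, and mt-Co1 stands above all others.

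Complex I takes 7 of its subunits from mitochondrial DNA (mt-Nd1 to mt-Nd6 and mt-Nd4l), which form the membrane arm that pumps protons. Before nuclear copies are added, the most abundant of them was mt-Nd1 (chrM:2751-3707). It had 25196, 23923 and 16508 CPM in Cre-negative 1, 2 and 3, compared with 14238 and 16824 CPM in Cre-positive 1 and 2. Cre-positive 1 was the lowest of the 5 libraries and Cre-positive 2 lay just above Cre-negative 3. The log2 fold change was -0.49 ± 0.35 (edgeR adjusted p = 0.977). mt-Nd2 had 10320, 9495 and 6644 CPM against 5392 and 6733 CPM, a log2 fold change of -0.54 ± 0.33 (-0.35 without Cre-positive 1), with Cre-positive 2 again just above Cre-negative 3. mt-Nd4l, the smallest of these subunits, had 860, 747 and 627 CPM in Cre-negative mice compared with 477 and 536 CPM in Cre-positive mice. Both Cre-positive libraries were below all 3 Cre-negative ones, and the log2 fold change was -0.56 ± 0.25 (edgeR unadjusted p = 0.0614, adjusted p = 0.977). mt-Nd4, which overlaps mt-Nd4l by 7 bases, had 20343, 17732 and 13256 CPM against 11865 and 15758 CPM (-0.31 ± 0.35). Its value was -0.082 without Cre-positive 1 and -0.14 without Cre-negative 1. Reads of mt-Nd4 and mt-Nd4l also match nuclear copies, described below, and mt-Nd4l held only 32.0% to 35.1% of the counts summed with its copy. With its copy added, mt-Nd4 had 33054, 27652 and 21098 CPM against 18287 and 23794 CPM, above mt-Nd1 in every library. The other 3 subunits were closer together: the log2 fold changes were -0.29 ± 0.32 for mt-Nd3, -0.17 ± 0.33 for mt-Nd5 and -0.27 ± 0.31 for mt-Nd6, the mRNA that is read from the opposite strand. Those of mt-Nd3 and mt-Nd5 turned to 0.017 and 0.019 without Cre-negative 1, and that of mt-Nd6 was then -0.052.

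Complex III has a single mitochondrial gene, mt-Cytb, for cytochrome b (chrM:14145-15288). It had 11532, 9777 and 7255 CPM in Cre-negative compared with 6381 and 8097 CPM in Cre-positive mice, a log2 fold change of -0.40 ± 0.34. One Cre-positive library was below all Cre-negative libraries and the other lay among them. The value was -0.21 without Cre-negative 1 and -0.20 without Cre-positive 1.

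Complex IV, cytochrome c oxidase, takes its catalytic subunits from mt-Co1 and mt-Co2 and a further core subunit from mt-Co3. mt-Co1 (chrM:5328-6872), which carries the site where oxygen is reduced, ranked 1 of all 19198 genes by mean CPM and took 11.1%, 9.27% and 7.74% of all counts in Cre-negative compared with 8.81% and 9.30% in Cre-positive libraries. Its CPM were 124026, 91247 and 71938 against 85231 and 95690, with both Cre-positive values inside the Cre-negative range. The log2 fold change was -0.08 ± 0.39, and it turned to 0.18 without Cre-negative 1 and to 0.038 without Cre-positive 1. mt-Co2, which receives electrons from cytochrome c, had 15944, 12990 and 10538 CPM against 9404 and 10508 CPM (-0.40 ± 0.33), so that the highest Cre-positive value was barely under the lowest Cre-negative one. Without Cre-negative 1 the value was -0.21. mt-Co3 had 21653, 15041 and 12074 CPM against 14316 and 13964 CPM (-0.20 ± 0.36), and its log2 fold change was 0.087 without Cre-negative 1.

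ATP synthase has 2 mitochondrial subunits in its membrane part, and their reading frames overlap on 1 mRNA. mt-Atp8 had 2977, 2447 and 2032 CPM in Cre-negative compared with 1883 and 1950 CPM in Cre-positive mice, without overlap (-0.38 ± 0.28, and -0.20 without Cre-negative 1). mt-Atp6 had 9065, 4968 and 4103 CPM against 5589 and 5048 CPM (-0.18 ± 0.40), with both Cre-positive values between the extremes of the Cre-negative ones. Of the 13 mRNAs, its log2 fold change moved most without Cre-negative 1, to 0.26. That fit left out the nuclear copy of mt-Atp6, described below. With the copy added, mt-Atp6 had 11613, 8166 and 6569 CPM in Cre-negative 1, 2 and 3, against 6940 and 6534 CPM. A fit with the copy added was not run without that mouse, and the part of read division in the turn was not tested. The genes share 43 bases, shown here because reads from them cannot be given to either gene by sequence. The lines below, from GENCODE M21 transcripts on GRCm38, give the end of mt-Atp8 (chrM:7912-7969) and the start of mt-Atp6 (chrM:7927-7984), both on the plus strand and 5′ to 3′, with the shared bases in capitals:
mt-Atp8: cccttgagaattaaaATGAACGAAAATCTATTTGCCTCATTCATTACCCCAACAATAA
mt-Atp6: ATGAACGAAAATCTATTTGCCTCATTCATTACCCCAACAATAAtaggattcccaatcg

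The mitochondrial rRNAs, mt-Rnr1 and mt-Rnr2, were few in these libraries, which were depleted of rRNA per the labels. Together they summed to 119.8, 72.5 and 48.6 CPM in Cre-negative compared with 64.1 and 49.3 CPM in Cre-positive mice, so the groups overlapped. The log2 fold changes were -0.40 ± 0.40 for mt-Rnr1, which turned to 0.072 without Cre-negative 1, and -0.54 ± 0.40 for mt-Rnr2, which was then -0.12.

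Set against their length, the 13 mRNAs covered a wide range. The mean was 60600 CPM per kb of transcript for mt-Co1, 20206 for mt-Nd1, 19655 for mt-Co3 and 17364 for mt-Co2. It was 11068 CPM per kb for mt-Atp8 and 8450 for its partner mt-Atp6, and lowest for mt-Nd3 (4098) and mt-Nd4l (2187). Parts of this order turn when the nuclear copies described below are added to their genes: mt-Atp6 then had 11695 CPM per kb against 11071 for mt-Atp8, mt-Nd4l had 6668 against 4833 for mt-Nd3, and mt-Co3 (28015) and mt-Co2 (25626) lay above mt-Nd1 (20213). mt-Co1 was highest both ways. The nuclear members were far lower on the same scale: the highest, the ATP synthase subunits Atp5b and Atp5g3, had 243 and 198 CPM per kb.

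All mitochondrial members together took 23.8%, 21.2% and 17.3% of the counts in Cre-negative 1, 2 and 3, compared with 17.8% and 18.8% in Cre-positive 1 and 2 (20.8% ± 3.27, SD, n = 3, against 18.3% ± 0.704, SD, n = 2). The Cre-positive shares lay between Cre-negative 3 and Cre-negative 2. With this many counts, the Wilson 95% interval of each share was at most 0.0386 percentage points to either side, covering counting error only, so the spread was between libraries. The nuclear members together took 0.296%, 0.327% and 0.447% in Cre-negative compared with 0.361% and 0.381% in Cre-positive libraries, with intervals of at most 0.00547 points to either side. Their order among the Cre-negative mice was the reverse of the mitochondrial one.

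Other RNAs differed between the libraries alongside the mitochondrial mRNAs. Smooth muscle markers summed to 3898, 1963 and 1516 CPM in Cre-negative 1, 2 and 3, compared with 1275 and 1545 CPM in Cre-positive 1 and 2. All 10 of these genes had negative log2 fold changes, with a median of -0.83, and Cre-negative 1 had the highest sum, as it had for the mitochondrial mRNAs. RNAs that stay in the nucleus, such as Malat1 and Neat1, summed to 8789, 8197 and 6050 CPM against 5787 and 6026 CPM, and 6 of the 7 tested were negative. Neuron and glia markers summed to 25.2, 21.3 and 10.6 CPM against 8.32 and 13.4 CPM, with Sox10 and S100b absent from the table. Epithelial markers summed to 2305, 2555 and 2634 CPM against 2640 and 3202 CPM. Markers of position along the gut also set libraries apart. Proximal markers summed to 431, 214 and 1168 CPM against 287 and 841 CPM, and distal markers to 3101, 1863 and 978 CPM against 2814 and 2473 CPM. Cre-negative 3 thus had the most proximal and the least distal marker RNA, and it also had the highest nuclear share given above. Gata4, a transcription factor of the proximal small intestine, had 24.7, 19.8 and 47.4 CPM against 0.387 and 39.9 CPM, and Lct, lactase, had 259, 15.8 and 881 CPM against 3.48 and 632 CPM, with Cre-positive 1 the lowest for both. The high proximal sums of Cre-negative 3 and Cre-positive 2 were thus mostly Lct, which is also among the enterocyte markers. Crypt and proliferation markers summed to 193, 297 and 572 CPM against 626 and 319 CPM. The part of these differences in the mitochondrial and nuclear values was not tested.

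Within the mitochondrial mRNAs, some shares separated the groups where the total did not. mt-Co1 was 46.4%, 43.8% and 44.7% of the mitochondrial mRNA counts in Cre-negative mice (45.0% ± 1.36, SD, n = 3) and 49.5% in each of the 2 Cre-positive mice, a difference of 4.54 percentage points without overlap. Leaving out any 1 mouse kept the difference between 3.94 and 5.28 points. The shares of 6 other mRNAs (mt-Nd1, mt-Nd2, mt-Nd4l, mt-Cytb, mt-Co2 and mt-Atp8) were lower in Cre-positive mice without overlap. As shares of 1 total they are bound to each other, and mt-Co1 alone holds nearly as much as the rest. By CPM, 10.2% of all genes tested were lower and 7.89% higher without overlap, and no such background was taken for shares like these. The ratio of mt-Co1 to mt-Nd1 counts, which does not use that total, was 4.92, 3.81 and 4.36 in Cre-negative compared with 5.99 and 5.69 in Cre-positive mice. The ratio of mt-Co1 to mt-Nd2 counts was 12.0, 9.61 and 10.8 against 15.8 and 14.2. These contrasts were noticed in the values and were given no test.

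Reads of several mitochondrial genes also match copies of mitochondrial DNA in the nuclear genome, which bears on the values above of the genes concerned. Aligning the mitochondrial transcripts to the nuclear transcripts of GENCODE M21 gave 15 genes of the count table with at least 90% identity over at least 100 bases. A row of 7 lies on chromosome 1, minus strand (chr1:24611535-24616197): Gm28439, Gm10222, Gm28438, Gm28437, Gm10925, Gm28661 and Gm29216, which match mt-Nd4, mt-Nd4l, mt-Nd3, mt-Co3, mt-Atp6, mt-Co2 and mt-Co1. Over their aligned bases, 5 of these 7 were identical to the mitochondrial gene, and the other 2 had 1 mismatch each. Together the 15 copies held 3.79%, 3.41% and 2.96% of the counts in Cre-negative compared with 2.86% and 2.74% in Cre-positive libraries. Of the 15, 10 had fractional values (tolerance 0.005) in at least 1 library, as had 7 of the 13 mitochondrial mRNAs, beside 5556 of all 19198 genes. Counts had thus been divided between genes before deposit. Values of 100000 or more hold no decimals, so mt-Co1 could not show a fraction in any library.

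The sequences show how little there is to tell the copies from the mitochondrial genes. The first bases of mt-Nd3 (chrM:9459-9491, plus strand) and of Gm28438 (chr1:24613087-24613119, minus strand) hold the 1 substitution between them, T3C counted from the first base of mt-Nd3, in capitals:
mt-Nd3: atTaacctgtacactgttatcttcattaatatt
Gm28438: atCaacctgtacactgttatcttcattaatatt
For mt-Co1 (chrM:6390-6423) and Gm29216 (chr1:24616155-24616188, minus strand) the 1 substitution is A1066T, counted from the first base of mt-Co1:
mt-Co1: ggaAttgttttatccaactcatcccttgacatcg
Gm29216: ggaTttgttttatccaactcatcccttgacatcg
The copy of mt-Co2 on chromosome 2, Gm13341, is easier to tell apart. It has 16 substitutions, and 7 of them fall in the stretch below (chrM:7474-7534), where it (chr2:22587453-22587513, minus strand) differs from mt-Co2 at the capitals and Gm28661 (chr1:24615044-24615104, minus strand) does not:
mt-Co2: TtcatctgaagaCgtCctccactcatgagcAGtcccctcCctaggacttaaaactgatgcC
Gm28661: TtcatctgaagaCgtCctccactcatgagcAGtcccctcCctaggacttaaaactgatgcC
Gm13341: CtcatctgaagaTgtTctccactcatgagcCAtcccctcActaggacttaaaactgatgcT

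The copies did not all follow their mitochondrial genes. Of 13 copies tested, 11 had negative log2 fold changes and 5 (Gm10222, Gm10925, Gm13339, Gm13341 and Gm28661) were lower in Cre-positive mice without overlap (38.5%, beside 10.2% of all genes). These copies share reads with each other and with the mitochondrial genes and are not independent of them. Gm10925, identical to the first 678 bases of mt-Atp6, had 10607, 17182 and 15166 counts in Cre-negative compared with 6996 and 9575 in Cre-positive mice, a log2 fold change of -0.94 ± 0.28 (edgeR adjusted p = 0.977). The share of mt-Atp6 in the summed counts of both genes was 78.1%, 60.9% and 62.4% in Cre-negative compared with 80.5% and 77.2% in Cre-positive mice, so the division differed even between Cre-negative mice. Gm29216, the copy of part of mt-Co1, went the other way, with 2789, 1857 and 1912 CPM against 4369 and 2323 CPM (0.61 ± 0.37), so the groups overlapped. Leaving out Cre-positive 1 gave 0.13, and leaving out Cre-positive 2 gave 1.04. For mt-Nd4l and its identical copy the mitochondrial share was steady, at 32.0% to 35.1% in the 5 libraries.

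Adding each copy to its mitochondrial gene and refitting all genes left 14251 genes tested and 0 called. The log2 fold changes remained negative for 13 of 13 mRNAs, with a median of -0.38. mt-Atp6 moved most, from -0.18 to -0.38, while mt-Nd4 moved from -0.31 to -0.37, mt-Nd4l from -0.56 to -0.54 and mt-Co1 from -0.08 to -0.07. The share of mt-Co1 in mitochondrial mRNA, with copies added to both, was 42.8%, 40.2% and 41.0% in Cre-negative compared with 46.7% and 45.9% in Cre-positive mice, again without overlap.

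**Figure D2:**
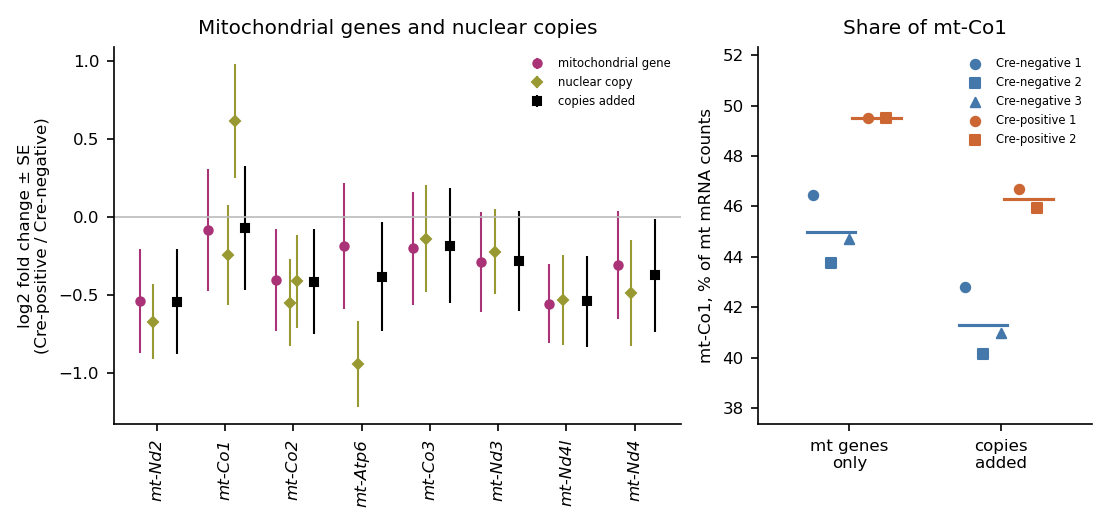
Left: log2 fold change ± SE (Cre-positive over Cre-negative, edgeR) of mitochondrial genes (circles), of their tested nuclear copies (diamonds) and of both added together (squares), for the 8 genes with copies on chromosomes 1 and 2. Right: mt-Co1 as percent of mitochondrial mRNA counts in each library without and with the copies (the axis does not start at 0; lines are group means); Cre-positive mice lie above Cre-negative mice both ways.

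The nuclear members showed no common direction. Of 82 tested, 41 had positive and 41 negative log2 fold changes, with a median of 0.00. The groups did not overlap with Cre-positive mice higher for 6 of them (7.32%, beside 7.89% of all genes) and with Cre-positive mice lower for 10 (12.2%, beside 10.2%), shares close to those of all genes. By complex, the medians over tested members were -0.02 for complex I (38 members), -0.19 for complex II (6), 0.07 for complex III (8), 0.00 for complex IV (14) and 0.08 for complex V (16).

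**Figure D3:**
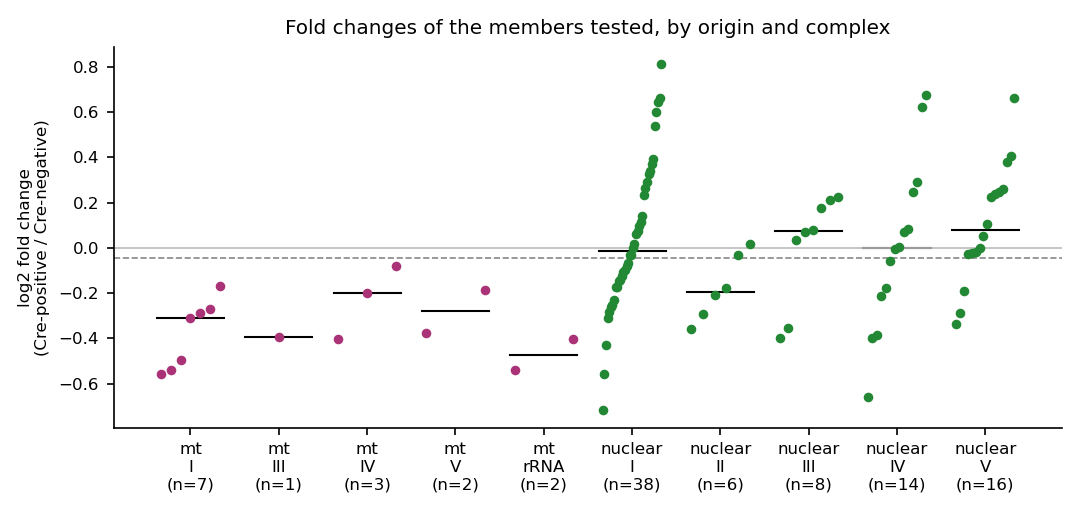
Log2 fold changes (Cre-positive over Cre-negative, edgeR) of the 97 members tested, by genome of origin and complex, with n the number of genes. Each point is 1 gene, short black lines are medians, and the dashed line is the median of all genes tested (-0.04); all 15 mitochondrial points lie below 0, while nuclear points lie on both sides of it in every complex.

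In complex I, nuclear genes encode the flavin and iron-sulfur subunits that carry electrons and many accessory subunits. The 2 members with the smallest p of the whole set were accessory subunits of its membrane arm, and both genes lie on the X chromosome. Ndufa1 (chrX:37187588-37191163) had 30.9, 18.5 and 19.9 CPM in Cre-negative compared with 41.8 and 39.0 CPM in Cre-positive mice. Both Cre-positive libraries were above all Cre-negative ones, and the log2 fold change was 0.81 ± 0.28 (edgeR unadjusted p = 0.0236, adjusted p = 0.977). Ndufb11 (chrX:20615326-20617619) had 18.0, 17.0 and 23.8 CPM against 33.5 and 28.8 CPM, also without overlap (0.66 ± 0.26, unadjusted p = 0.0346, edgeR adjusted p = 0.977). Leaving out each mouse in turn kept Ndufa1 between 0.67 and 1.10 and Ndufb11 between 0.57 and 0.87. Cox7b, another X-linked gene of the set, had 31.9, 28.5 and 45.3 CPM against 51.5 and 34.8 CPM, so the groups overlapped (0.29 ± 0.30, and 0.013 without Cre-positive 1).

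On the lower side, Ndufs7, an iron-sulfur subunit close to the ubiquinone site, had 17.0, 18.3 and 19.2 CPM in Cre-negative compared with 7.74 and 14.3 CPM in Cre-positive mice. The 3 Cre-negative values were tight and both Cre-positive ones were under them, with a log2 fold change of -0.72 ± 0.33 (edgeR unadjusted p = 0.0643, adjusted p = 0.977). Most of this came from Cre-positive 1: the value was -0.32 without that mouse and -1.19 without Cre-positive 2. Ndufb10 had 5.99, 3.89 and 5.70 CPM against 3.29 and 3.73 CPM (-0.56 ± 0.39). The most abundant nuclear members of the complex differed little. Ndufs1, its largest subunit, had 76.9, 85.8 and 117 CPM in Cre-negative compared with 86.3 and 82.2 CPM in Cre-positive mice. Ndufc1 had 51.0, 43.2 and 56.2 CPM against 58.2 and 59.7 CPM (0.23 ± 0.21), narrowly without overlap. Ndufb4 and its copy Ndufb4c share reads, and their deposited counts summed to whole numbers, 77, 75 and 106 against 100 and 114, so neither is read on its own.

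Complex II, succinate dehydrogenase, is wholly nuclear and also a step of the citric acid cycle. Sdha, the flavin subunit, had 101, 102 and 123 CPM in Cre-negative compared with 73.0 and 104 CPM in Cre-positive mice (-0.29 ± 0.24), with Cre-positive 1 the lowest and a value of -0.029 without it. Sdhd, a membrane anchor, had 84.8, 95.6 and 143 CPM against 99.8 and 118 CPM. Sdhb, the iron-sulfur subunit, had 40.0, 45.8 and 67.4 CPM against 37.7 and 62.2 CPM. The second anchor, Sdhc, had 58.7, 42.8 and 53.0 CPM against 35.0 and 55.8 CPM (-0.18 ± 0.28), and leaving out Cre-positive 1 gave 0.15. The groups overlapped for all 4 subunits.

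In complex III, Uqcrc2, a core subunit, was the most abundant, at 134, 180 and 244 CPM in Cre-negative compared with 184 and 197 CPM in Cre-positive mice. Uqcrb, a small subunit near the quinone site, had 68.5, 64.7 and 69.2 CPM against 45.9 and 56.6 CPM. It was the 1 subunit of this complex whose groups did not overlap (-0.40 ± 0.21, and -0.22 without Cre-positive 1). Uqcrc1, the other core subunit, had 37.6, 59.3 and 67.1 CPM against 29.0 and 56.4 CPM (-0.36 ± 0.37), and turned to 0.071 without Cre-positive 1. Uqcrh, the hinge protein that aids contact with cytochrome c, and Uqcrfs1, the Rieske iron-sulfur protein, had log2 fold changes of 0.23 ± 0.23 and 0.21 ± 0.22 with overlapping groups. Uqcrq had 148, 147 and 180 CPM against 156 and 179 CPM.

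In complex IV, nuclear subunits surround the mitochondrially encoded core, and several have isoforms that differ between tissues. Widely expressed forms and forms known from other tissues were both counted. Cox6a1 and Cox7a2, known from liver and most other tissues, had means of 6.62 and 29.2 CPM, while Cox7a1, known from heart and skeletal muscle, had 2.65 CPM and Cox6b2, known from testis, 2.21 CPM. Cox7a2 had 21.3, 19.6 and 29.5 CPM in Cre-negative compared with 48.6 and 26.7 CPM in Cre-positive mice, with Cre-positive 1 above all others and Cre-positive 2 among the Cre-negative mice (0.68 ± 0.33). Leaving out Cre-positive 1 gave 0.22, and leaving out Cre-positive 2 gave 1.08. Cox7a1 had 3.83, 2.59 and 2.93 CPM against 1.55 and 2.33 CPM, lower without overlap (-0.66 ± 0.48) on 8 to 18 counts a library. Smooth muscle markers, whose sums are given above, were lower on average in Cre-positive mice but with overlapping sums, and their part in this was not tested. Cox5a, on the matrix side of the complex, had 24.0, 26.7 and 27.5 CPM against 17.0 and 22.8 CPM (-0.38 ± 0.25), and Cox6a1 had 6.95, 7.04 and 7.98 CPM against 5.999 and 5.13 CPM (-0.40 ± 0.32). Both were lower without overlap. Without Cre-positive 1 the values were -0.37 for Cox7a1 and -0.16 for Cox5a, and without Cre-positive 2 the value for Cox6a1 was -0.25.

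Most nuclear complex IV subunits were closer to even. Cox6b1, the most abundant, had 74.5, 73.0 and 83.9 CPM in Cre-negative compared with 67.7 and 80.4 CPM in Cre-positive mice. Ndufa4, first counted to complex I and now placed in complex IV, had 40.7, 40.0 and 73.2 CPM against 67.5 and 54.6 CPM. Cox4i1, the regulatory subunit that binds ATP, had 17.7, 18.5 and 23.8 CPM against 14.9 and 25.2 CPM. Cox8a had 38.3, 53.0 and 38.6 CPM against 37.5 and 37.2 CPM (-0.21 ± 0.24), so the groups were apart by a narrow margin, and the value was -0.044 without Cre-negative 2. Cox7a2l, which helps to join complexes III and IV, had 32.8, 31.1 and 37.96 CPM against 36.0 and 35.4 CPM.

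ATP synthase had the highest nuclear levels. The beta and alpha subunits of its catalytic head, Atp5b and Atp5a1, had 385, 406 and 566 CPM and 296, 291 and 398 CPM in Cre-negative mice. In Cre-positive mice they had 430 and 541 CPM and 292 and 364 CPM, all inside the Cre-negative range. Of the 3 genes for the c subunit, whose mature proteins are the same, Atp5g3 had a mean of 143 CPM, Atp5g1 10.2 CPM and Atp5g2 3.56 CPM. Per kb of transcript these were 198, 2.16 and 4.87 CPM, so Atp5g3 was highest on both scales. The transcripts taken had 723, 4715 and 731 bases, so the order of Atp5g1 and Atp5g2 per kb depends on the long one taken for Atp5g1. Atp5e, the epsilon subunit of the central stalk, had 40.7, 17.0 and 23.5 CPM against 52.3 and 33.1 CPM, a log2 fold change of 0.66 ± 0.40 with overlap (0.34 without Cre-positive 1 and 1.10 without Cre-negative 1). Atp5j2 had 18.0, 11.5 and 10.7 CPM against 19.6 and 15.9 CPM (0.41 ± 0.32). Atp5j, part of the peripheral stalk, had 26.1, 27.1 and 31.1 CPM against 19.9 and 24.6 CPM, lower without overlap (-0.34 ± 0.24), and Atp5md had a log2 fold change of -0.29 ± 0.29. Without Cre-positive 1 these were -0.16 and -0.067.

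**Figure D4:**
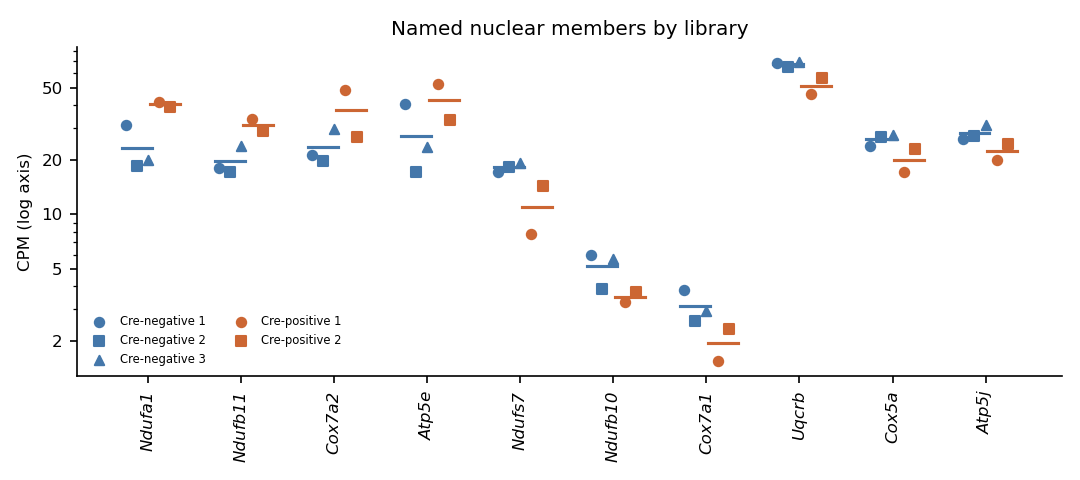
CPM (log axis) of 10 named nuclear members in each library (blue Cre-negative, orange Cre-positive, lines are group means). Ndufa1 and Ndufb11 are higher in both Cre-positive mice, Cox7a2 and Atp5e overlap, and the 6 genes to the right are lower in both Cre-positive mice.

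Mitochondrial mRNA counts were 80.3, 64.7 and 38.7 times the counts of the nuclear members in Cre-negative 1, 2 and 3, compared with 49.3 times in each of the 2 Cre-positive mice. The Cre-positive values fell inside the Cre-negative range. The difference of mean log2 ratios was -0.25, and -0.02 to -0.55 when 1 mouse was left out. By complex, the ratio for complex I was 112, 108 and 64.0 in Cre-negative compared with 63.4 and 72.4 in Cre-positive mice. For complex III it was 21.1, 17.0 and 10.3 against 11.2 and 12.2. Complex IV had the highest ratio, 446, 316 and 212 against 257 and 301, and complex V the lowest, 8.81, 5.78 and 3.49 against 5.18 and 4.15. The groups overlapped in all 4 complexes, and Cre-negative 1 had the highest ratio in each. Without that mouse the difference of mean log2 ratios turned to 0.10 for complex IV and to 0.05 for complex V, while it stayed negative for complexes I and III. These ratios leave out the nuclear copies. Gm10925, the copy of mt-Atp6, had 2542, 3184 and 2471 CPM against 1354 and 1488 CPM. The mitochondrial members of complex V summed to 12042.5, 7415 and 6135 CPM against 7471 and 6998 CPM. Ratios by complex with copies added were not taken, and the part of read division in these turns was not tested.

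**Figure D5:**
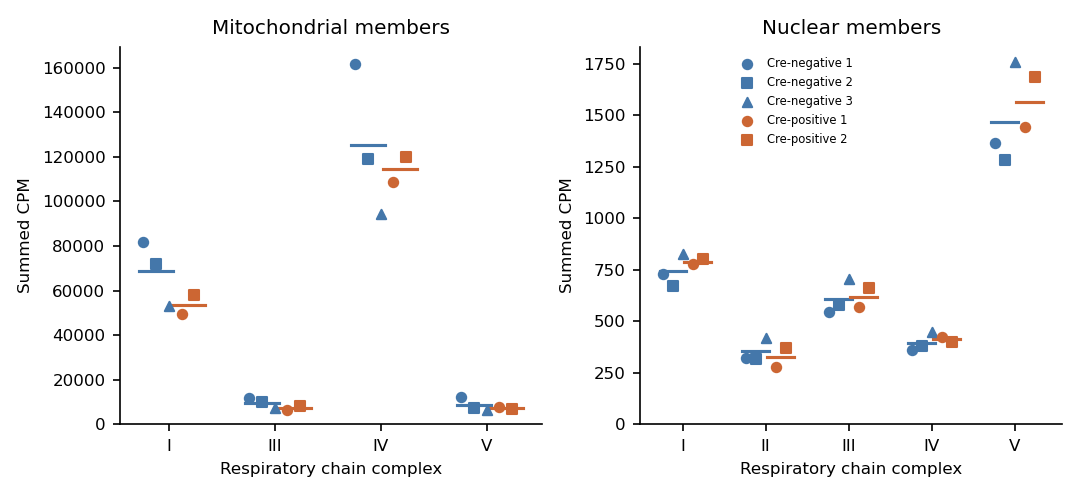
Summed CPM of mitochondrial members (left) and nuclear members (right) by complex in each library, with group means as lines; complex II has no mitochondrial member, and both axes start at 0. Cre-negative 1 is the highest point in every complex on the left, and Cre-negative 3 in every complex on the right.

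Promoters were examined for what the nuclear members share. Windows from 250 bases before to 50 after the start were taken from RefSeq (GRCm38.p6) and matched 76 of the 93 nuclear members. NRF1 is a transcription factor known to act on many respiratory chain genes. The letters GCATGCGC, from its binding motif, were in 14.5% of the 76 windows on either strand, each gene counted once, beside 5.84% of the windows of 9524 genes tested. The letters AAGATGGC, from the motif of YY1, were in 13.2% beside 5.21%. Those of the ETS family, to which GABP belongs, CCGGAAGT, were in 6.58% beside 8.96%, and TATAAAA was in 2.63% beside 3.29%. These shares describe the windows and were given no test. The median log2 fold change was -0.14 for the 10 tested members with the NRF1 letters and 0.06 for the 58 without. For the other letters the medians lay the other way round: 0.23 with and -0.02 without for ETS (5 and 63 members), 0.10 and -0.02 for YY1 (9 and 59), and 0.20 and 0.00 for TATAAAA (2 and 66). Examples from 1 member each of complexes II, I and IV follow, 5′ to 3′, with the NRF1 letters in capitals: Sdhb (chr4:140961191-140961250, plus strand), Ndufa6 (chr15:82354341-82354400, minus strand) and Cox6a1 (chr5:115349085-115349144, minus strand):
Sdhb: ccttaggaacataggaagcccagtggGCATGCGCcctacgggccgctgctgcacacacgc
Ndufa6: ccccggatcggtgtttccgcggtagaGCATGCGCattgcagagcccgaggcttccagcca
Cox6a1: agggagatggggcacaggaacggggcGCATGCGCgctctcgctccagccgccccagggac
The letters begin 54, 83 and 160 bases before the start in these 3 genes.

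Genes that build, regulate or feed the respiratory chain were taken from lists by function, and 0 genes of these lists were called in either direction. Of the assembly factors of complex I, 9 were tested and 6 had positive values, with a median of 0.12. Ndufaf1, which helps to build the membrane arm, had 4.31, 2.41 and 4.72 CPM in Cre-negative compared with 5.81 and 5.28 CPM in Cre-positive mice (0.54 ± 0.42, and 0.29 without Cre-negative 2). Of 31 tested assembly factors of complexes II to V, 13 were positive, with a median of -0.04. Among 22 tested genes for electron carriers and exchange of adenine nucleotides, 10 were positive. Cycs, cytochrome c, had 318, 329 and 453 CPM against 631 and 419 CPM (0.52 ± 0.28), the highest value being that of Cre-positive 1, without which the log2 fold change was 0.22. Slc25a4, the ATP/ADP carrier known from muscle, had 29.95, 13.3 and 7.66 CPM against 15.7 and 6.53 CPM (-0.61 ± 0.63), and turned to 0.10 without Cre-negative 1.

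Genes that keep and transcribe mitochondrial DNA were split evenly, with 8 of 16 tested positive and a median of -0.01. Of the 22 tested genes that process and degrade mitochondrial RNA, 14 were positive and the median was 0.11. Slirp, which with Lrpprc stabilises mitochondrial mRNAs, had 8.63, 4.08 and 7.66 CPM in Cre-negative compared with 12.4 and 13.5 CPM in Cre-positive mice, higher without overlap (0.94 ± 0.37, edgeR unadjusted p = 0.0393, adjusted p = 0.977). Fastk, of the family of mitochondrial RNA-binding proteins that bears its name, had 15.3, 14.5 and 9.29 CPM against 6.97 and 8.39 CPM, lower without overlap (-0.75 ± 0.34).

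Of 16 tested regulators of mitochondrial biogenesis, 7 were positive and the median was -0.22. Ppargc1a, the coactivator at the head of this programme, varied widely, with 151, 94.3 and 202 CPM in Cre-negative compared with 42.8 and 172 CPM in Cre-positive mice. Sirt3, a mitochondrial deacetylase, had 11.0, 9.45 and 9.29 CPM against 5.42 and 7.62 CPM, lower without overlap (-0.60 ± 0.32, and -0.34 without Cre-positive 1). In the citric acid cycle and pyruvate dehydrogenase, 6 of 20 tested genes were positive, with a median of -0.08. Cs, citrate synthase, had 734, 619 and 716 CPM against 405 and 821 CPM, the 2 Cre-positive mice being the lowest and the highest. Suclg1, the shared subunit of succinyl-CoA ligase, had 24.4, 33.4 and 32.1 CPM against 51.5 and 38.2 CPM, higher without overlap (0.58 ± 0.25, and 0.38 without Cre-positive 1).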

How the data were processed

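Total RNA of 5 mice was depleted of rRNA and sequenced, 1 library per mouse, per the labels' protocols. The authors deposited estimated counts per gene symbol, made with Partek on mm10 per the submitters' processing notes. Aligner, annotation, strand use and read assignment were not given in the sources used here. Values hold 6 significant digits, and genes with a total under 10 are not among the rows. Counts were rounded and tested with edgeR 4.0.16 (R 4.3.3): TMM, filterByExpr (minimum count 10, met in at least 2 libraries), robust quasi-likelihood fit on genotype, Benjamini-Hochberg over 14352 genes, threshold 0.05. With 3 against 2 mice, p-values set the group difference against the spread between these mice, with variance estimates that borrow from all genes. Standard errors are the absolute log2 fold change divided by the root of the F statistic. Alternatives were other scalings, DESeq2 1.42.0, limma-voom (limma 3.58.1), other filters, leaving out each mouse and, chosen after seeing the data, adding nuclear copies. The fit was run on counts simulated from the means and dispersions of these data, as a check on the size of recovered fold changes. That check does not show that uncalled genes are unchanged. Lengths (longest principal transcript) and coordinates came from GENCODE M21 for 107 of 108 members; Atp5md had none.

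The members and lists were chosen with earlier results of these data known. Named genes were all mitochondrial members and, per complex, the 2 nuclear subunits with the highest mean CPM and the 2 with the most positive and most negative log2 fold changes (mean log2 CPM of at least 1), genes with tissue isoforms, the 3 smallest p, and the highest and extreme genes of each list. Some genes under the rule are left out, and Ndufaf1, Ndufb4, Gm10925 and the X-linked comparison were chosen after their values were seen.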

Additional observations from a re-analysis of the deposited data

How the results depend on the processing

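The fit of 3 against 2 mice left 3 residual degrees of freedom, at a biological coefficient of variation of 33.1%. Counts of mitochondrial genes and their nuclear copies rest on a division of reads whose rule is not known, and values of 100000 or more hold no decimals. The number of members called was 0 in all alternatives run. Over all genes, DESeq2 called 19 (12 higher, 7 lower), and leaving out 1 mouse gave 0 to 58, the 58 without Cre-positive 2. When 1 mouse was left out, the difference in mitochondrial share ran from -4.21 to -0.96 points and the nuclear median from -0.05 to 0.12. Of 45 gene fold changes reported, 9 changed sign, and these did so only when a mouse was left out, which moved 37 of the 45 by over 1.5 times. Their ranges were -0.40 to 0.017 for mt-Nd3, -0.28 to 0.019 for mt-Nd5, -0.21 to 0.18 for mt-Co1, -0.33 to 0.087 for mt-Co3, -0.35 to 0.26 for mt-Atp6, -0.59 to 0.072 for mt-Rnr1, -0.51 to 0.15 for Sdhc, -0.88 to 0.071 for Uqcrc1 and -1.32 to 0.10 for Slc25a4. The positive values came without Cre-negative 1, except for Sdhc and Uqcrc1, where they came without Cre-positive 1, and for mt-Co1, where leaving out Cre-positive 1 also gave 0.038. Nuclear copies were not added to their genes in the fits with a mouse left out. A mouse left alone in its group was taken to vary like the others, and the cause of these turns was not tested. No paired analysis was possible because the labels give no replicate numbers that groups share.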
